A study of Mus musculus with 22 samples.

Results

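Gap junctions are channels that join the cytoplasm of neighbouring cells, and each is built from connexin proteins. Pannexins form related channels that open to the outside of a single cell and let ATP leave it. Both kinds are known in astrocytes as routes by which a calcium signal passes from cell to cell, either through the junction or through released ATP acting on purinergic receptors. The genes described here are 7 rows of the count table chosen by symbol: the connexins Gja1, Gjb6, Gjb2 and Gjc1, the pannexins Panx1 and Panx2, and Tjp1, which encodes the scaffold protein ZO-1 that binds the tail of the Gja1 product. They were 7 of 23453 gene symbols, of which 17479 had a read in any cell.

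The cells were 22 single astrocytes cultured from the cortex of single newborn C57BL/6 pups, with cytosine arabinoside given to the cultures against contaminating cells such as microglia. Every cell met ethanol (EtOH) during calcium imaging, and recordings ended with a pulse of ATP as a reference signal. They comprised 6 S-type cells with a sustained calcium signal, 6 T-type cells with a transient signal, 5 M-type cells with a mixed signal and 5 cells without a response to EtOH (NR), so that NR is no untreated control. Each cell was drawn into a micropipette and its RNA was amplified before sequencing. Pup, culture, collection time and lane of a cell are not given in the labels, so each response type counts as 1 sample, cells are not replicates, and no test between types was made. The cells were grown at low density according to the study's text, and contact between cells was not analysed here.

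T-type libraries held 2937786 to 19279519 reads, and those of all other cells 12229280 to 22131076. Values below are raw reads, normalized counts (reads divided by a median-of-ratios size factor of the cell) or CPM (reads scaled to a fixed total of the cell), as each sentence says. Size factors were lowest in the T-type cells J163_18 (0.183) and J162_16 (0.276), against 0.548 to 2.31 in the other 20 cells. J162_16 had 12564138 reads, so its CPM and its normalized counts place it differently against the other cells. Genes with a read numbered 6319 in J162_16, 7442 in J163_18 and 8647 in J165_23, all T-type. The S-type, M-type and NR cells had 9272 to 13070, and the T-type cells J161_9, J164_19 and J166_25 had 9760, 9993 and 10614. Of 10 astrocyte markers all had reads, 8 of them in every cell and S100b in 16 cells. Summed shares of reads stayed at or below 0.00504% for microglial, 0.0101% for neuronal and 0.0200% for endothelial markers, and the endothelial connexins Gja4 and Gja5 had no read in any cell. The microglial share was highest in NR, with a median of 0.00248%. Markers of mural cells and meningeal fibroblasts made up 0.00955% to 0.748% of reads, with Acta2 read in all 22 cells and the pericyte gene Rgs5 in none. Oligodendrocyte lineage markers made up 0.00322% to 0.333%, mostly Olig1, with Sox10 at 0, and ependymal markers at most 0.0215%.

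Gja1 and Tjp1 were read in every cell, and the other 5 genes were patchy. Gjc1 had reads in 19 of 22 cells and Panx1 in 12, whereas Panx2 had reads in 4, Gjb2 in 3 and Gjb6 in 2. Only Gja1, Gjc1, Panx1 and Tjp1 were read in at least 5 cells, the minimum for a comparison between types. Gjb6, Gjb2 and Panx2 are described below by their reads alone. Intervals and floors below cover counting error only, because a molecule may have given many amplified reads.

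**Figure D1:**
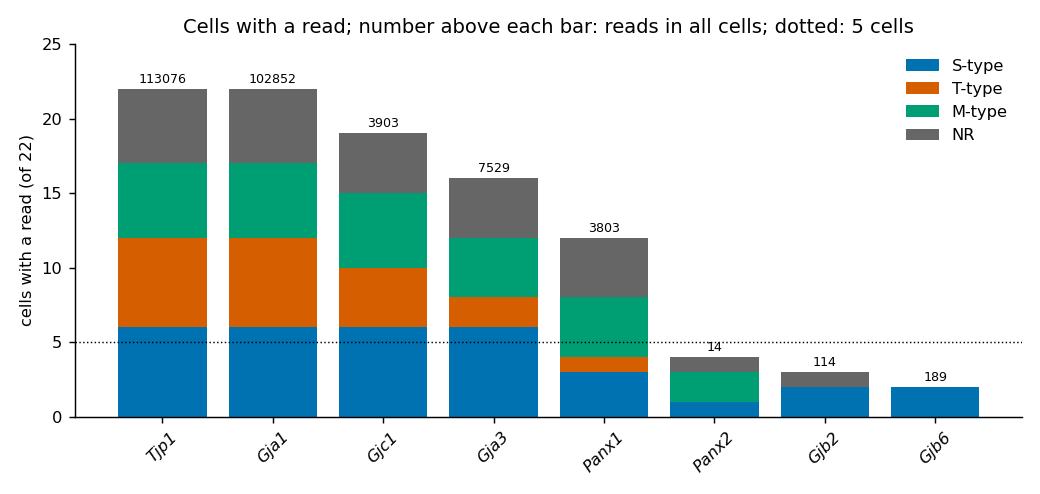
Number of the 22 cells with a read (y axis) for the 7 genes and Gja3 (x axis), stacked by response type, with the reads summed over all cells above each bar and a dotted line at 5 cells. Tjp1 and Gja1 reach 22 cells, Gjc1 19, Gja3 16 and Panx1 12, and the other 3 stay below 5.

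Compared per kilobase of the longest annotated transcript, Gja1 led with a mean of 68.0 CPM per kilobase over the 22 cells, followed by Tjp1 with 42.4. Gjc1 reached 3.31, Panx1 1.70, Gjb6 0.290, Gjb2 0.122 and Panx2 0.0094 CPM per kilobase. The order of Gja1 and Tjp1 depended on the length used: per kilobase of the union of exons Tjp1 had 38.2 and Gja1 25.8. The other 5 genes kept their places with either length. By mean CPM, Tjp1 ranked 685 and Gja1 769 among the 17479 genes with a read, while Gjc1 ranked 7730 and Panx1 8067.

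The 7 genes lie at 6 places of the genome (GRCm38, GENCODE vM21 annotation). Gja1, on the plus strand at chr10:56377330-56402513, encodes the main astrocyte connexin. Gjc1 lies at chr11:102799579-102819700, Panx1 at chr9:15002128-15045478 and Tjp1 at chr7:65296165-65527781, all on the minus strand, and Panx2 lies on the plus strand at chr15:89059734-89073567. Gjb2 (chr14:57098600-57104702) and Gjb6 (chr14:57123303-57133611), the remaining connexins of the astrocyte and of the inner ear, stand 18600 bases apart on the minus strand of chromosome 14. Gja3, a connexin best known from the eye lens and not among the 7 genes, is their neighbour on the same strand at chr14:57034460-57058100, 40499 bases from Gjb2. No exon of the 7 genes overlapped an exon of another annotated gene.

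The 3 neighbours on chromosome 14 were read in very different numbers of cells: Gja3 in 16, Gjb2 in 3 and Gjb6 in 2. Their promoters are shown with that of Gja1 because the number of CG dinucleotides separates broadly used from restricted promoters genome-wide. Among the 3 neighbours it followed the order of detection by any read, but not once Gja1 was added. The order of Gjb2 and Gjb6 reversed with at least 5 reads, where Gjb2 was found in 1 cell and Gjb6 in 2. Each sequence has 300 bases, runs 5′ to 3′ on the gene's strand and ends 50 bases after the RefSeq start (GRCm38.p6), with every CG in capitals.
Gja3, chr14:57057981-57058280, minus strand: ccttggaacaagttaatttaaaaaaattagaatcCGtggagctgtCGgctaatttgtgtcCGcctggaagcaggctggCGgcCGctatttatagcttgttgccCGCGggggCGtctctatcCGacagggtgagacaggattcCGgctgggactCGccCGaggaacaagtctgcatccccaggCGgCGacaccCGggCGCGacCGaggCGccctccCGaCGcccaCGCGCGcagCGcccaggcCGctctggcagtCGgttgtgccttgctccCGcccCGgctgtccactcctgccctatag
Gjb2, chr14:57104653-57104952, minus strand: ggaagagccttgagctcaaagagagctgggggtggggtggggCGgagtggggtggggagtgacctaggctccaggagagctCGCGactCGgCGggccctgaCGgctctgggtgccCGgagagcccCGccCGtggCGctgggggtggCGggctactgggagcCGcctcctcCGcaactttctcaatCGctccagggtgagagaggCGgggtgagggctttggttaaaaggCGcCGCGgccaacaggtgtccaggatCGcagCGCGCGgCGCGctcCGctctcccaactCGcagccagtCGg
Gjb6, chr14:57133562-57133861, minus strand: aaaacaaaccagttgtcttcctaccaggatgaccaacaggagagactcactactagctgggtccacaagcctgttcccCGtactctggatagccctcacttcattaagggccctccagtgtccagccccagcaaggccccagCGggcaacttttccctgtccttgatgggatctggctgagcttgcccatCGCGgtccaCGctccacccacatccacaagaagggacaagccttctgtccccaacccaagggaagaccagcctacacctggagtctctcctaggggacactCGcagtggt
Gja1, chr10:56377050-56377349, plus strand: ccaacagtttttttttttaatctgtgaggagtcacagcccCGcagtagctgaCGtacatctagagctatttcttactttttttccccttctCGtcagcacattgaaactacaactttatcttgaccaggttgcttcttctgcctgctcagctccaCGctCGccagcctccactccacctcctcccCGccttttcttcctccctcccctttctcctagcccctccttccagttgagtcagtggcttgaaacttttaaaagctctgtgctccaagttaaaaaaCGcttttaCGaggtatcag
The Gja3 window held 29 CG, that of Gjb2 27, that of Gjb6 6 and that of Gja1 8. Gja1, read in all 22 cells, thus had more CG than 37.3% of promoters, while Gjb2, with reads in 3 cells, had more than 79.2% of them. Panx1 (25 CG) and Tjp1 (31 CG) were also rich, and promoters of Gjc1 and Panx2 were not analysed here. Of the 16404 promoters whose gene was in the count table, the 7932 with at least 15 CG belonged to genes read in a median of 20 cells, the 3904 with 5 to 14 CG to genes read in a median of 5 and the 4568 with fewer to genes read in a median of 0 cells. The letters TATAAA, searched on both strands, were found in the Gja3 window and in none of the other 5 windows available, against 12.9% of all promoters.

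Gja1 was abundant in all 4 types, and the cells of every pair of types overlapped. In S-type the normalized count had a lowest value of 921, a median of 2335 and a highest of 2988, with a mean of 2183 ± 812 (SD over 6 cells). In T-type it went from 744 through a median of 3488 to 5718, with a mean of 3557 ± 1912 (SD over 6 cells). The ranges of these 2 types overlapped, and the lowest T-type cell, J164_19, was below every S-type cell. In M-type the 5 cells had 3314, 2040, 4828, 4833 and 1173, a mean of 3237 ± 1641 (SD). In NR they had 12819, 4140, 1116, 600 and 3783, a mean of 4492 ± 4912 (SD). NR therefore held both the highest and the lowest cell of all 22, and the highest, J182_2, supplied 57.1% of the NR level, which was 2410 without it. By mean level the order was NR, T-type, M-type and S-type, and every step in it was smaller than the pooled SD of the 2 types.

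Tjp1 was read in all cells but was low in 3 of the 6 T-type cells. S-type cells had a lowest normalized count of 2315, a median of 3217 and a highest of 6961, and T-type cells 535, 1395 and 6034. In T-type the cells J162_16, J163_18 and J165_23 lay at 627, 535 and 559, below every S-type and M-type cell. The 5 M-type cells had 5775, 5377, 6157, 4670 and 2029, and the 5 NR cells 6930, 2826, 6018, 2900 and 717. NR thus had 1 such low cell too, J187_6. Means were 4801 ± 1645 (SD, 5 cells) in M-type, 3881 ± 1809 (SD, 6 cells) in S-type, 3878 ± 2547 (SD, 5 cells) in NR and 2040 ± 2122 (SD, 6 cells) in T-type. Each neighbouring pair in that order overlapped and differed by less than its pooled SD.

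The ratio of scaffold to connexin differed widely among cells. This ratio does not depend on the scaling of a cell. Its size does depend on the transcript lengths used, here the longest, so a value near 1 has no meaning of its own. The order of the cells is the same with any length. Tjp1 per Gja1, in CPM per kilobase, had a median of 0.178 in T-type (range 0.075 to 1.60), 0.377 in NR (0.105 to 2.98), 0.954 in M-type (0.533 to 1.45) and 1.06 in S-type (0.519 to 1.39). The S-type and M-type cells all lay within 0.519 to 1.45, whereas T-type and NR cells fell on both sides of that interval. J165_23 (T-type) had the lowest ratio and J185_4 (NR) the highest. The T-type cell J164_19, at 1.60, was above every S-type cell, so that the T-type and S-type ranges overlapped. Over the 22 cells the Spearman rho of Gja1 and Tjp1 was 0.296, and 0.396 on CPM.

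**Figure D2:**
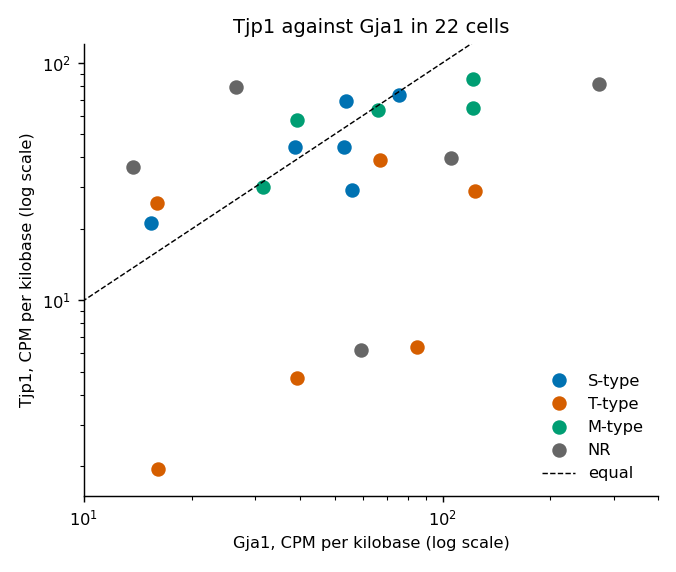
Tjp1 (y axis) against Gja1 (x axis) in CPM per kilobase of the longest transcript, both log scales, 1 point per cell coloured by response type, with a dashed line of equal levels. S-type and M-type cells follow the line within 0.519 to 1.45 times, while 3 T-type cells and 1 NR cell sit far below it, at ratios of 0.122, 0.121, 0.075 and 0.105. The place of the line depends on the transcript lengths used.

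Panx1, the pannexin that releases ATP from many cell types, was well read in some cells and almost absent from most others. It had no read in 10 cells, 1 or 2 reads in 3, 14 and 25 reads in 2 and at least 113 reads in 7. In S-type the reads were 113 in J151_5, 657 in J155_9, 1 in J156_16 and 0 in the other 3 cells. In T-type 1 cell, J164_19, had 2 reads and the other 5 had none. In M-type the reads were 356, 0, 14, 918 and 1049, and in NR 0, 388, 279, 25 and 1. No T-type cell of 6 thus had at least 10 reads, against 2 of 6 S-type cells, 3 of 5 NR cells and 4 of 5 M-type cells.

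As normalized counts, Panx1 had a mean of 232 ± 231 in M-type (SD, 5 cells), 106 ± 206 in S-type (SD, 6 cells), 87.3 ± 113 in NR (SD, 5 cells) and 0.608 ± 1.49 in T-type (SD, 6 cells). J155_9 supplied 80.7% of the S-type level and J183_1 50.4% of the NR level. J155_9 was also the cell with the largest share of mural and fibroblast markers, 0.748% of its reads, and their part in the result was not tested. The 6 T-type cells held 74754909 reads together, and the smallest library among them, J163_18, had 2937786. Every cell was also thinned to the 2937786 reads of the smallest library, which evens totals but not the number of genes read in a cell. Panx1 then had a read in 1 of 6 T-type, 2 of 6 S-type, 3 of 5 NR and 4 of 5 M-type cells. No interval is given for these counts, because cells are not replicates of a type. The part of the number of genes read in these counts was not tested. Of the 2881 other genes whose mean level was within 2-fold of that of Panx1, 167 (5.80%) had 2 reads or fewer in T-type. Panx2, the pannexin known mainly from neurons, had 2 reads in J156_16, 1 in J174_13, 8 in J176_25 and 3 in J187_6, and no read in T-type, where a count of 0 allows a level of up to 0.622 normalized counts.

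Gjc1, a connexin of vascular and other tissues, was detected broadly at a low level with few high cells. The reads in S-type were 121, 1974, 6, 90, 41 and 46, and all 6 cells had some. In T-type they were 5, 0, 0, 25, 1 and 660. In M-type they were 1, 423, 267, 2 and 2, and in NR 135, 97, 5, 2 and 0. At least 10 reads were present in 5 of 6 S-type cells, 2 of 6 T-type, 2 of 5 M-type and 2 of 5 NR cells. In each type 1 cell carried most of the signal: J151_5 supplied 89.3% of the S-type level, J166_25 88.8% of the T-type level, J173_25 69.9% of the M-type level and J182_2 57.8% of the NR level. Mean normalized counts were 399 ± 853 in S-type (SD, 6 cells), 84.8 ± 130 in M-type (SD, 5 cells), 79.3 ± 169 in T-type (SD, 6 cells) and 28.4 ± 37.9 in NR (SD, 5 cells). Neighbours in this order differed by less than their pooled SD.

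Among genes of a similar level, Gjc1 was more unequal between cells than most. Its coefficient of variation over the 22 cells was 2.91, above that of 89.5% of the 3228 genes within 2-fold of its level, whose median was 1.64. Gja1 and Tjp1 were more even than their peers, with coefficients of 0.788 and 0.603 against medians of 0.936 and 0.924. Panx1, at 1.69, was near the median of its peers, 1.79, but was read in 12 cells where these genes had a median of 17. The Gjc1 level had a Spearman rho of 0.541 with the number of genes read in a cell and of 0.022 with its total count, and the part of either in the result was not tested.

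**Figure D3:**
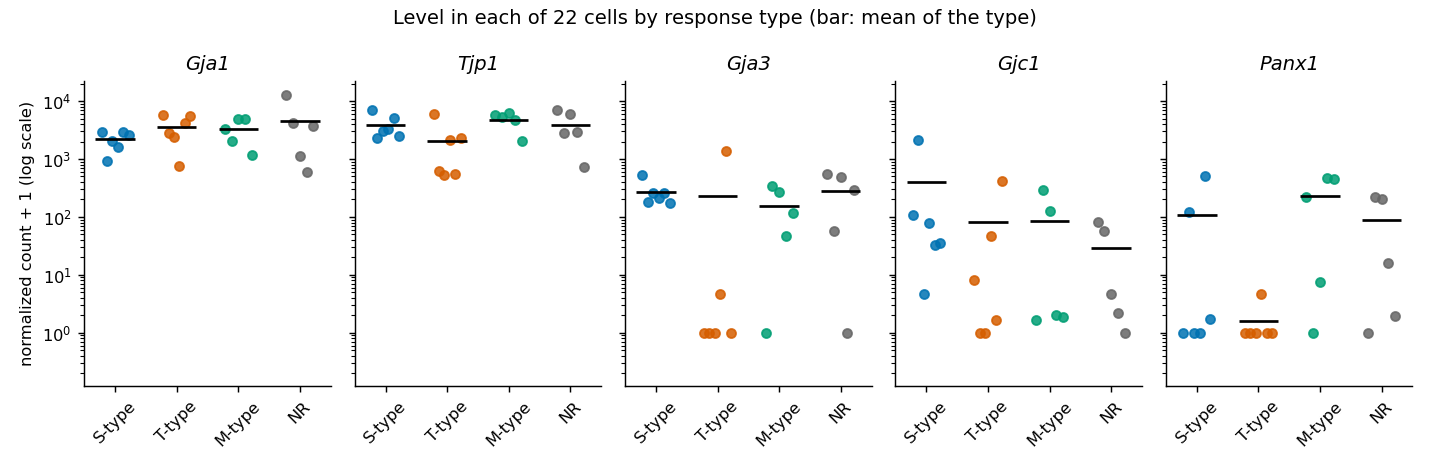
Normalized count plus 1 on a log scale (y axis) in each of the 22 cells by response type (x axis) for Gja1, Tjp1, Gja3, Gjc1 and Panx1, with a black bar at the mean of each type. Gja1 and Tjp1 stay within about 2 decades, whereas Gja3, Gjc1 and Panx1 each range from 0 in some cells to at least 515 in others, and T-type has no Panx1 cell above 3.65.

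Gjb6 and Gjb2, known from mature astrocytes of the brain as well as from the cochlea, were nearly absent from these cultured newborn cells. Gjb6 had 101 reads in J153_6 and 88 in J154_8, both S-type, and none in the other 20 cells. Its S-type level was 23.1 normalized counts. That level rests on 2 of 6 cells, and Gjb6 was read in too few cells to be compared between types. J154_8 was also the cell with the largest share of astrocyte markers, 1.04% of its reads, while J153_6 had 0.421%. The cells next to J154_8 in that share, J183_1 (0.983%) and J187_6 (0.886%), had no Gjb6 read. The part of these markers was not tested. Gjb2 had 112 reads in the NR cell J183_1 and 1 read each in the S-type cells J150_3 and J154_8, so that 1 cell held 97.3% of its level. J183_1 had the most genes with a read, 13070, and the largest share of microglial markers, 0.00504%, whose part in the result was not tested. Thinned to the smallest library, Gjb6 was still read in 2 cells and Gjb2 in 1.

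Beyond the 4 connexins named so far, the table held 17 other connexin and pannexin symbols, of which only Gja3 was read in at least 5 cells. Gja3 was second to Gja1 among connexins per kilobase, with 7.03 CPM per kilobase over all cells. It was read in all 6 S-type cells, with a lowest normalized count of 175.1, a median of 231 and a highest of 526. In T-type it had 2127 reads in J165_23, 2 reads in J164_19 and none in the other 4 cells. In M-type the reads were 0, 490, 568, 89 and 270, and in NR 910, 97, 686, 0 and 313. The mean normalized count was 230 in T-type, close to 267 in S-type and 278 in NR, but 99.7% of the T-type value came from J165_23. Without that cell the log2 ratio of T-type to S-type was -8.51, against -0.21 with it. Thinned to the smallest library, Gja3 was read in 6 of 6 S-type, 2 of 6 T-type, 4 of 5 M-type and 4 of 5 NR cells. Thinning does not even out the number of genes read in a cell, whose part was not tested. Of the remaining 16 symbols, 8 had a read in 1 or 2 cells and 8 in none, among them Gjb1, Gja4 and Gja5.

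Taking Gja1, Gja3, Gjc1, Gjb6 and Gjb2 together, per kilobase of the longest transcript, Gja1 supplied most of the connexin signal in 21 of 22 cells. Its share of their summed CPM per kilobase had a median of 90.3% and was over 90% in 13 cells. The exception was J151_5, an S-type cell, in which Gjc1 made up 67.5% and Gja1 25.5%. Its median share was highest in T-type (96.4%), followed by NR (93.6%), M-type (90.3%) and S-type (79.4%), and the ranges of the types overlapped. The highest S-type cell had 90.2%, whereas 5 of 6 T-type cells had 91.9% to 100% and J165_23 had 68.0%. The Gja3 share ranged from 0 to 38.2%, the latter in J185_4. Summed over the 5 genes, the signal ranged from 13.7 CPM per kilobase in J186_5 to 291 in J182_2, both NR. All these shares depend on the length used. With the union of exons the mean of Gja1 fell from 68.0 to 25.8 CPM per kilobase, and that of Gja3 from 7.03 to 6.56. Shares with that length were not computed, and those of Gja1 would be lower wherever another of the 5 genes was read. The count of 21 cells therefore holds for the longest transcript only.

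**Figure D4:**
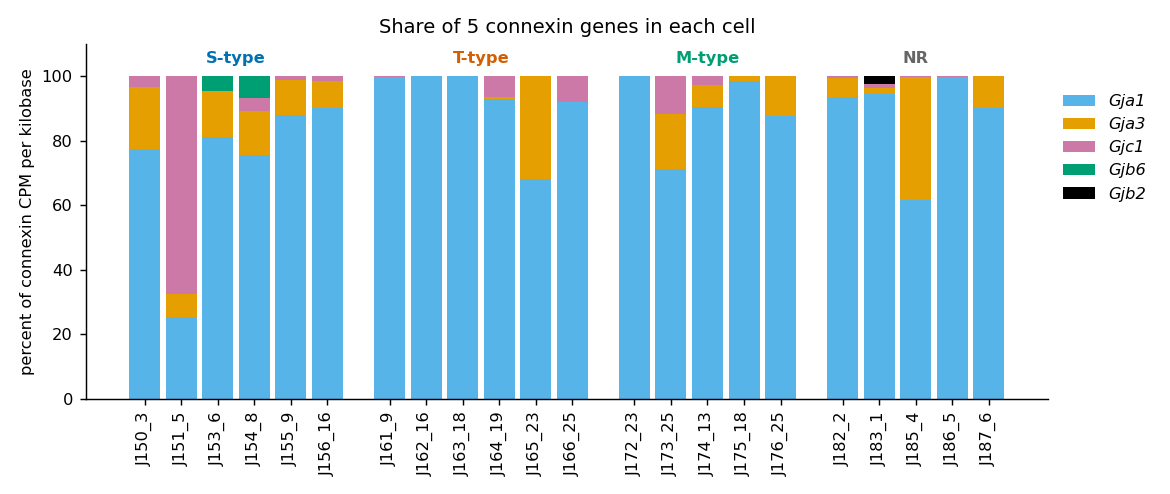
Share of 5 connexin genes in their summed CPM per kilobase of the longest transcript (y axis, percent) for each of the 22 cells (x axis, grouped by response type). Gja1 fills most of every bar except that of J151_5, where Gjc1 holds 67.5%, and Gjb6 shows in 2 S-type cells only.

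The 7 genes occurred in 9 combinations. Gja1, Gjc1, Panx1 and Tjp1 without the others was the most frequent, in 7 cells of all 4 types, followed by the same set without Panx1 in 5 cells. The T-type cells J162_16 and J163_18, those of the lowest size factors and the fewest genes read, had reads of Gja1 and Tjp1 alone. The number of the 7 genes with a read had a median of 3 in T-type and 4 in each other type, with ranges of 2 to 4 in T-type, 4 to 5 in S-type and 3 to 5 in M-type and NR.

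Comparing the types pairwise, 2 of the 4 genes compared were past 2-fold in each contrast, and in none did the cells of 2 types fall apart without overlap. For T-type versus S-type, Gjc1 and Panx1 were past 2-fold, where 58.2% of all 12517 genes compared were past 2-fold and 0.783% had cells that did not overlap. For T-type versus NR these were again Gjc1 and Panx1, against backgrounds of 61.2% and 1.01%. For S-type versus NR they were Gja1 and Gjc1, against 47.6% and 0.412%, and for M-type versus NR Gjc1 and Panx1, against 47.9% and 0.602%. A count of 2 of 4 is near the background in every contrast, and genes compared had to be read in 5 cells, so the counts describe these genes and set none of them apart. The 3 contrasts with NR share its 5 cells, and both T-type contrasts share the T-type cells. The median log2 ratio of all genes compared was -0.09, -0.07, 0.03 and -0.20 in the 4 contrasts in the order given.

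For Panx1 the log2 ratio of T-type to S-type was -7.45 (exact counting interval -10.50 to -5.59) and that of T-type to NR was -7.17 (-10.21 to -5.31), both from 2 reads in T-type. In these contrasts 2.04% and 2.61% of all genes had a lower ratio. Leaving out each cell in turn left the T-type to S-type ratio between -7.71 and -5.34 and the T-type to NR ratio between -7.49 and -6.48. The median over cells, however, was also near 0 in S-type, and on that scale the T-type to S-type log2 ratio was -0.46. M-type was 1.41 above NR on the log2 scale (1.29 to 1.53), with a range of 0.97 to 2.10 over single cells left out. S-type and NR differed by 0.29 (0.14 to 0.44), which became -1.83 without J155_9.

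The Gjc1 ratios turned on single cells. T-type was lower than S-type with a log2 ratio of -2.33 (-2.46 to -2.21), but without J151_5 it was higher, 0.63, and without J166_25 the ratio was -5.23. T-type was higher than NR by 1.48 (1.27 to 1.70), which turned to -1.41 without J166_25. S-type was higher than NR by 3.82 (3.62 to 4.01), a value that 4.92% of all genes exceeded, and by 0.85 without J151_5. M-type was higher than NR by 1.58 (1.37 to 1.80), and by 0.17 without J173_25.

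For Gja1 the log2 ratio of T-type to S-type was 0.70 (0.67 to 0.73), below 2-fold, with a range of 0.52 to 0.92 over single cells left out and 0.24 on mean CPM. S-type was lower than NR, with a ratio of -1.04 (-1.07 to -1.01), just past 2-fold, and without J182_2 the ratio was -0.14. T-type and M-type lay below NR with ratios of -0.34 and -0.47, which became 0.56 and 0.43 without the same cell. For Tjp1 the ratio was -0.93 for both T-type versus S-type (-0.96 to -0.90) and T-type versus NR (-0.96 to -0.89), just short of 2-fold. On mean CPM both were past it, at -1.40 and -1.45, and without J161_9, the T-type cell highest in Tjp1, both were -1.64. Without J162_16 and J163_18 together they were both -0.49. S-type and NR had equal Tjp1 levels, with a ratio of 0.00 (-0.02 to 0.02), and M-type was above NR by 0.31.

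**Figure D5:**
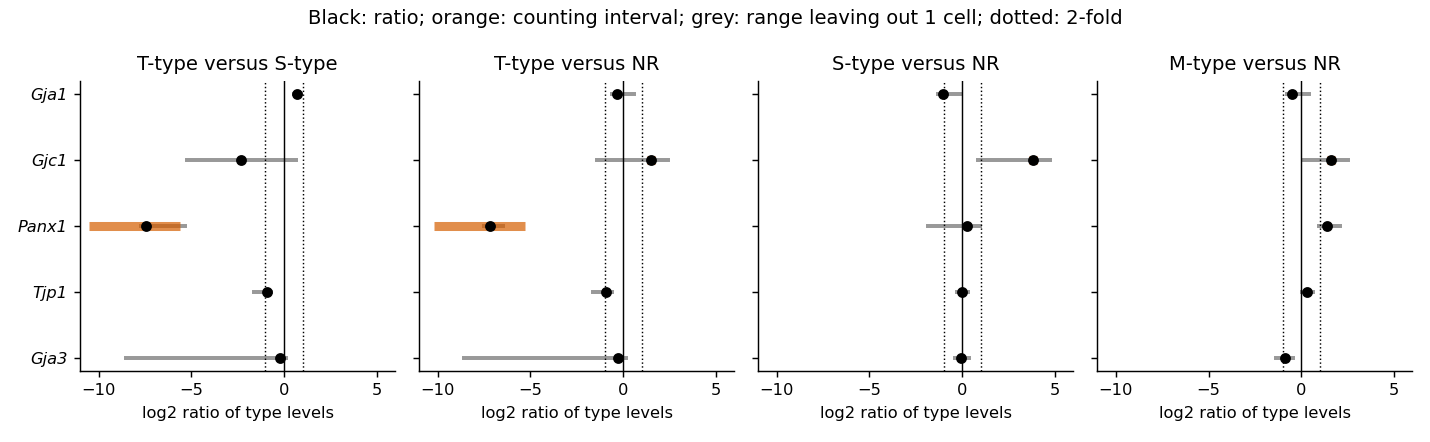
Log2 ratio of type levels (x axis) for 5 genes (y axis) in 4 contrasts. Black points are the ratios, orange bars the exact counting intervals (narrower than the point except for Panx1 in the contrasts with T-type), grey bars the range over leaving out each cell, and dotted lines 2-fold; the grey bar of Gjc1 crosses 0 in both T-type contrasts, and that of Panx1 stays below -5 in them.

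The levels of the 4 widely read genes were weakly related over the 22 cells, which share scaling, amplification and any unlabelled batch, and the correlations are descriptions. Gjc1 and Tjp1 had the highest Spearman rho, 0.458, and the other 5 pairs lay between -0.171 and 0.296. The genes whose levels followed Gja1 most closely, among 10492 with a mean of at least 10 normalized counts and reads in at least 11 cells, were Nr1h3, Emc3 and Nptn, with rho of 0.660, 0.659 and 0.651. Those nearest Gjc1 were Plekhf1 (0.869), Gm11696 (0.847) and Mlf1 (0.828). Those nearest Panx1 were Reep1 (0.742), Ptpn14 (0.729) and Cwf19l1 (0.728), and those nearest Tjp1 were Gripap1 (0.800), Acsl1 (0.793) and Rbm19 (0.790). The highest of 10492 values is large by selection. With the summed astrocyte markers, the rho was 0.185 for Gja1, -0.094 for Gjc1, -0.310 for Panx1 and -0.108 for Tjp1.

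Among 18 partners of gap junctions, such as cadherin and catenins of the adherens junction, kinases that phosphorylate the Gja1 product and actin-linked scaffolds, 17 were read in at least 5 cells. For T-type versus S-type, 2 of the 17 were at least 2-fold higher and 4 lower, with a median log2 ratio of 0.16, where 58.2% of all genes compared were past 2-fold in either direction. The largest were Src, a tyrosine kinase (1.55), and Ctnna1, the alpha-catenin that links cadherins to actin (1.28). The smallest were Nov, a secreted protein that binds the Gja1 product (-4.92), and Prkce, a protein kinase C (-2.84). Nov was read in 9 cells only, and its ratio was 0 on the median over cells and -0.99 on the mean of log2, both short of 2-fold. In normalized counts, Ctnna1 had a mean of 27646 in T-type, above 11360 in S-type, 17467 in M-type and 19071 in NR. Its T-type to S-type log2 ratio was below 2-fold on mean CPM (0.50), pooled CPM (0.30) and the median over cells (0.81). Prkce had 115 in T-type, 827 in S-type, 237 in M-type and 265 in NR. Against NR, 2 partners were higher and 5 lower in T-type, 3 higher and 1 lower in S-type and 2 higher and 1 lower in M-type, where 61.2%, 47.6% and 47.9% of all genes were past 2-fold. In all 4 contrasts the share of partners past 2-fold was thus below that of all genes. The 2 sets were not matched for level. Partners such as Ctnna1 were read in all 22 cells, while the genes compared include some read in only 5. The lower share therefore cannot be read as a trait of the partners.

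Of 21 genes of other ATP release channels, purinergic receptors and enzymes that degrade extracellular ATP, 12 were read in at least 5 cells. For T-type versus S-type, 11 had a ratio, of which 4 were at least 2-fold higher and 3 lower, with a median of 0.33. That share of genes past 2-fold was near the 58.2% of all genes compared. Lrrc8c, a subunit of volume-regulated anion channels, had the largest log2 ratio, 4.42, with a mean normalized count of 611 in T-type against 28.6 in S-type. That ratio was 2.57 on mean CPM, 1.13 on the median over cells and 0.80, below 2-fold, on the mean of log2. The obligatory subunit Lrrc8a was read in all 22 cells, at 2846 in T-type, 2625 in S-type, 471 in M-type and 1342 in NR. P2rx7, the ATP-gated channel that works with Panx1 in several cell types, had 301 in T-type, 55.7 in S-type, 5.83 in M-type and 792 in NR, so it was lowest in the type where Panx1 was highest. Its T-type to S-type ratio of 2.44 turned negative on pooled CPM, -0.37. The ectonucleotidases Entpd1 and Entpd2 had no read in T-type, with S-type levels of 21.7 and 6.72 normalized counts, and Entpd2 was read in 4 cells only. The vesicular ATP transporter Slc17a9 had 3 reads in 1 cell, and the receptors P2ry1 and P2ry2 were read in 19 and 20 cells. For T-type versus NR, 10 of these genes had a ratio, of which 5 were at least 2-fold higher and 4 lower. That share was above the 61.2% of all genes compared, but the genes are few and the difference was not tested. For S-type versus NR, 2 of 11 were higher and 4 lower, where 47.6% of all genes were past 2-fold. For M-type versus NR, 0 of 11 were higher and 4 lower, where 47.9% were.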

How the data were processed

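The RNA of 22 single astrocytes was amplified, sequenced and counted per gene. The authors deposited raw counts: exonic reads per gene symbol and cell, without normalization, after alignment with STAR to GRCm38. The study's methods name VERSE for the counting, while the submitters' processing notes list STAR and HTSeq; versions and the use of strand are not given in the sources used here. Response types came from the labels. There were no molecular identifiers, and amplification starts at the poly(A) tail, so that reads gather near transcript ends and a level per length is approximate.

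Each count was divided by a median-of-ratios size factor of its cell, taken from the 3670 genes that every cell had reads of. Type levels were means over cells, an absent gene was set to 3 reads over the type, and pairs of types with 3 reads or fewer each got no ratio. Genes were compared when read in at least 5 cells (12719 genes, fewer with a ratio per contrast), and a gene was counted as different from 2-fold. As the labels name no animal or culture of a cell, no test or p-value was computed; the spread given is that between cells, which may be technical. Intervals were exact (Clopper-Pearson) at 95% from the split of reads. Correlations between pairs of libraries were 0.466 to 0.794 on the log2 scale, with no near-identical pair. The genes, lists and tests were chosen with earlier results of these data known. All 7 genes were described; of each list the 2 largest and 2 smallest ratios of T-type to S-type among genes with a mean of at least 10 are named, Gja3 was named as the only other family gene read in 5 cells, and the 3 closest genes in pattern per gene; other list genes in the text (Lrrc8a, Slc17a9, P2ry1, P2ry2) were added after their values were seen. Promoters came from RefSeq tables (6 of the 8 genes matched) and positions from GENCODE vM21. Python 3.11.15, NumPy 2.4.6, pandas 2.3.3, SciPy 1.17.1, matplotlib 3.10.9 and edgeR 4.0.16 (TMM factors, R 4.3.3) were used. The ratio calculation was run on simulated Poisson counts that had no spread between cells of a type beyond counting. That run checks the arithmetic only and does not cover the spread between these cells. Alternatives were mean CPM, pooled CPM, TMM factors, thinning to the smallest library, a pseudocount of 1, the median or the mean log2 over cells, other filters, and each cell left out. Some genes of the family and lists are not reported here. Leaving out the T-type cells J162_16 and J163_18 together was added after seeing the data.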

Additional observations from a re-analysis of the deposited data

Results flagged for a closer look

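Within each response type, the highest or lowest normalized count of each of the 7 genes and Gja3 was set against the others of its type by Dixon's gap test, in the 22 combinations of gene and type with more than 3 reads. A single cell stood apart in 9 of them, where chance flags about 1 in 20 groups if values are spread evenly around a mean, which sparse counts are not. Each of the 9 was the highest cell of its type.

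For Gja1 it was J182_2 in NR (12819, next cell 4140), and for Tjp1 J161_9 in T-type (6034, next 2326). For Gjc1 it was J151_5 in S-type (2140, next 107) and J166_25 in T-type (423, next 45.6). For Panx1 it was J155_9 in S-type (515, next 122), and for Panx2 J176_25 in M-type (3.46, next 0.469), the latter from 8 reads. For Gjb2 it was J183_1 in NR (63.5, all others 0). For Gja3 it was J150_3 in S-type (526, next 256) and J165_23 in T-type (1378, next 3.65). No cell was flagged for 2 genes.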

How the results depend on the processing

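No paired analysis was possible because replicate numbers follow accession order only and pair no cells. The count of genes past 2-fold, 2 of 4 in each contrast, stayed between 2 and 3 under all alternatives for the 2 contrasts with T-type cells, the added one included. The genes behind that count changed, however. Tjp1 replaced Gjc1 for T-type versus S-type without J151_5 (-1.04) and for T-type versus NR on the mean of log2 (-1.17) and the median (-1.06). It replaced Panx1 for T-type versus S-type on the median (-1.21). The steady count therefore does not mean that Gjc1 and Panx1 were steady. For S-type versus NR it was 1 on mean CPM and 4 of 7 with no filter, and for M-type versus NR 1 on the mean of log2. Leaving out 1 cell gave 2 to 3 for both T-type contrasts, 0 to 3 for S-type versus NR (0 without J151_5) and 1 to 2 for M-type versus NR (1 without J173_25 or J175_18); the cause was not tested. Ratios past 2-fold that turned were those of Gjc1 for T-type versus S-type (0.63 without J151_5, -5.23 without J166_25), T-type versus NR (-0.10 on the mean of log2 and -1.41 without J166_25, 2.41 at most without J182_2) and M-type versus NR (-1.17 on the median), and of P2rx7 for T-type versus S-type (-0.37 on pooled CPM, -2.39 on the median and -1.33 on the mean of log2). Panx1 kept its sign in both T-type contrasts under all 7 other scalings and all cells left out, from -8.36 to -0.46 against S-type and from -8.18 to -3.71 against NR. With at least 10 reads as detection, Gjc1 was found in 11 cells, Panx1 in 9, Gjb6 in 2, Gjb2 in 1 and Panx2 in 0. Thinned to the smallest library, Gjc1 was read in 13 cells, Panx1 in 10, Gjb6 in 2, Gjb2 in 1, Panx2 in 0 and Gja1 and Tjp1 in 22.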

Other observations

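Tjp3, which encodes the scaffold ZO-3 of epithelia, had 180 reads in the M-type cell J173_25, and the other 21 cells had 5 together. J173_25 also had the largest share of ependymal markers, 0.0215% of its reads; their part was not tested. The oligodendrocyte connexin Gjc3 had 5 reads in J166_25 (T-type) and 1 in J174_13 (M-type), while the oligodendrocyte gene Sox10 had no read in any cell.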
